A study of Homo sapiens with 34 samples.

Results

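Mantle cell lymphoma (MCL) lines were compared with lines of the activated B-cell (ABC) form of diffuse large B-cell lymphoma (DLBCL) by RNA sequencing of cultured human lymphoma lines. The comparison took 16 of the 34 lines of the series by their pathology label. The MCL group was GRANTA519, HBL-2, Jeko-1, JVM2, MAVER-1, Mino, REC-1, SP-49, SP-53, UPN1 and Z-138 (n = 11). The ABC DLBCL group was HBL-1, MD903, OCI-Ly10, OCI-Ly3 and SU-DHL-8 (n = 5), and a sixth ABC line, NU-DUL-1, was left out because its library was of another type. All 16 are established cell lines, the labels name no treatment and no genetic change for any of them, and each line gave 1 library. The p-values therefore measure the spread between lines, and a line's own variation between cultures was not measured.

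MCL arises from B cells of the mantle zone around the lymphoid follicle, and its hallmark is a translocation that places the cyclin D1 gene under an immunoglobulin enhancer. D-type cyclins bind CDK4 and CDK6 and drive the passage from the G1 phase to DNA synthesis. SOX11, a transcription factor that normal B cells lack, is a second marker of most MCL. ABC DLBCL is known for chronic B-cell receptor and NF-kB signalling, for the plasma-cell regulator IRF4 and, in part of the cases, for activating mutations of MYD88 or CD79B. It is commonly told apart from the germinal centre B-cell type (GCB DLBCL) by a small set of classifier genes.

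Levels are given as variance-stabilised log2 counts, on which a gene with 0 reads sits at 4.55 and a single read at 4.70 to 4.84. A difference is the MCL mean minus the ABC DLBCL mean on that scale, which understates the ratio of reads for weakly expressed genes. Recovered depth was 60.1 to 109 M reads (M, 1e+06) in the MCL libraries and 81.2 to 165 M in the ABC DLBCL libraries. Genes were called at a limma adjusted p under 0.05. Summed markers of T and NK cells reached 245 RPM (reads per 1e+06 reads) in MCL and 148 in ABC DLBCL, those of myeloid cells 20.6 and 9.51, and those of stromal and endothelial cells 173 and 123, with overlapping ranges. No marker of these lists was called. The mean of the B-cell genes MS4A1, CD79A, CD79B and PAX5 was 13.33 to 15.55 in MCL and 13.42 to 15.32 in ABC DLBCL.

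SP-49 and SP-53 stood apart as a pair. Over the genes tested, centred on the mean of the 16 lines, their values correlated at r = 0.721, while the next pair of the 120, OCI-Ly10 with OCI-Ly3, reached 0.432. Whether SP-49 and SP-53 share an origin was not tested. Counts of called genes are therefore also given with either line left out.

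The ABC label was read against the 8 ABC classifier genes. HBL-1, OCI-Ly10 and OCI-Ly3 exceeded all 11 MCL lines in 5, 5 and 6 of them, and MD903 and SU-DHL-8 in 0. MD903 lay below the MCL median in 6 of the 8 and SU-DHL-8 in 7. TNFRSF13B, the TACI receptor, was at 14.31 in HBL-1, 13.47 in OCI-Ly10, 13.96 in OCI-Ly3 and 11.30 in MD903, and had 0 reads in SU-DHL-8. CYB5R2, a cytochrome b5 reductase, was at 13.36 in HBL-1, 4.76 in MD903, 13.29 in OCI-Ly10, 12.99 in OCI-Ly3 and 6.62 in SU-DHL-8, against MCL values from 5.37 in REC-1 to 9.76 in JVM2 with a median of 8.45. Among the 7 GCB classifier genes, MME (CD10) was at 4.82 in HBL-1, 8.92 in MD903, 5.56 in OCI-Ly10, 5.52 in OCI-Ly3 and 11.44 in SU-DHL-8. Over the 7 GCB classifier genes MD903 and SU-DHL-8 were not high, each below the MCL median in 5, with means of 6.50 and 6.71 against 7.28 in MCL. In IRF4, an ABC classifier gene, they were at 13.02 and 13.28, against 7.79 ± 4.37 (SD) in 6 GCB DLBCL lines. Those GCB lines were split, with Pfeiffer at 12.89, Toledo at 13.93 and the rest at 4.74 to 5.21. IRF4 thus did not set MD903 and SU-DHL-8 apart from all GCB DLBCL lines. MD903 and SU-DHL-8 thus stood apart from the other 3 ABC lines in the ABC classifier genes. Leaving them out is an alternative chosen after seeing the data. Its results are given for some genes and lists only, beside those with all the ABC lines compared.

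**Figure D1:**
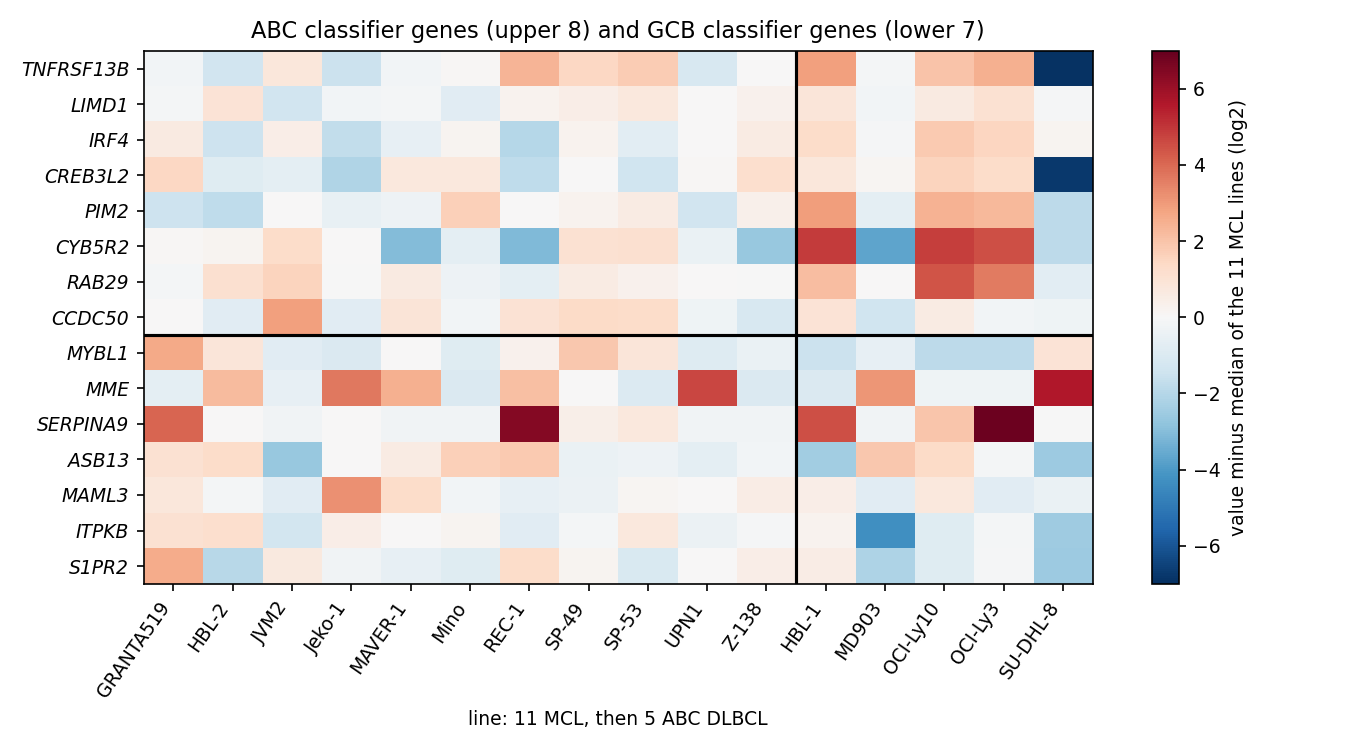
Heat map of the 8 ABC classifier genes and the 7 GCB classifier genes (rows) in the 11 MCL and 5 ABC DLBCL lines (columns), coloured by the value minus the median of the MCL lines in log2 units. HBL-1, OCI-Ly10 and OCI-Ly3 are above that median in most ABC classifier genes, MD903 and SU-DHL-8 are not, and SU-DHL-8 has the lowest TNFRSF13B and CREB3L2 and the highest MME.

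Of 17337 genes tested, 103 were called (0.594%), 77 higher in MCL (0.444%) and 26 lower (0.150%). The groups did not overlap in 93 genes (0.536%), of which 57 were higher in MCL and 36 lower, and 50 of the 103 called genes were among them. The median difference of all genes was 0.04. Centring each library on its median moved it to -0.11 and split the calls into 75 higher and 73 lower. With quantile normalization the calls were 79 higher against 74 lower. All 103 called genes kept their direction in each of the 29 alternative fits.

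The number depended on which lines entered. It was 62 without SP-49, 55 without SP-53, 57 without OCI-Ly10, 48 without OCI-Ly3, 63 without MAVER-1, 179 without JVM2 and 177 without SU-DHL-8. Without both MD903 and SU-DHL-8 it was 397 (2.29%), with 126 higher (0.727%), 271 lower (1.56%) and 64 shared with the 103. Within the lines marked as re-analysed (8 MCL and 5 ABC DLBCL), 67 genes were called and 48 were shared. The lines not so marked, HBL-2, MAVER-1 and UPN1, were all MCL. They had 2861 to 3598 reads of the gene MIF, against 8976 or more in the other lines compared. What the mark stands for in the libraries was not tested. A limma voom fit to the recovered reads called 21, of which 20 were among the 103. Of the 103 genes 9 passed in all 29 alternatives, among them CCND1, CNN3, PIMREG, VPS37B, EGLN3, ZNF354B and SSBP3, higher in MCL, and WNK4, lower.

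Of the other genes named below, SPN, PDLIM1, MSN, CNN3-DT, MT-TQ, MT-TA, MT-TS1, MT-TY and UGGT2 also passed with voom, and the rest did not. In the re-analysed lines SOX11, LY6E, LGMN, DNMT3A, P2RX7, PREX1, DIRAS1, DIPK1B, NPDC1, KCNQ1 and FIRRE were not called. Neither were MT-ND6, MT-TD, UGGT2, ZIC2, ZIC5, ABCG2, HAVCR1, DNAJB13, LSM8, SRF, ACTA1, SSBP3P1 and MCRIP2P1. Without MD903 and SU-DHL-8 the calls of SOX11, LY6E, MAP1B, LGMN, MSN, DNMT3A, P2RX7, PREX1, LY86, DIPK1B, NPDC1, NRARP, FIRRE, UGGT2, SSBP3P1 and MCRIP2P1 were lost. With NU-DUL-1 added the calls lost were those of INSR, GNG7, LGMN, KCNQ1, P2RX7, DNMT3A, C16orf54, LY86, ACTA1, SRF, LSM8, HAVCR1, ABCG2, ZIC2, ZIC5, UGGT2, MT-TD, MT-TS1, MT-TA and MT-TQ. With the 25 libraries of the same type fitted together, SPN, PDLIM1, KCNQ1, PREX1, LY86 and NPDC1 were not called. With all 34 libraries these 6 were again not called, and neither were INSR, GNG7, LGMN, AUTS2, DNMT3A, C16orf54, ACTA1, LSM8, UGGT2, ZIC2, ZIC5, MT-TQ, MT-TA, MT-TS1, MT-TY and MT-TD. With the library total as a covariate the losses were LY6E, MAP1B, NRARP, P2RX7, PREX1, C16orf54, CNN3-DT, LY86, NPDC1, SSBP3P1, MCRIP2P1, ACTA1, SRF, LSM8, DNAJB13, HAVCR1, ABCG2, ZIC2, UGGT2, MT-ND6 and MT-TD. Among genes not called, CDK6 and RGS13 (lower) and TLR7 (higher) passed after median-centring and after quantile normalization, and ITGA4 (higher) after the latter (adjusted p of 0.037 to 0.050). CDK6, BCL2L11 and SLC16A7 (lower) passed with 25 and with all 34 libraries, and CDK6 (lower) and IGHD (higher) with NU-DUL-1 added.

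**Figure D2:**
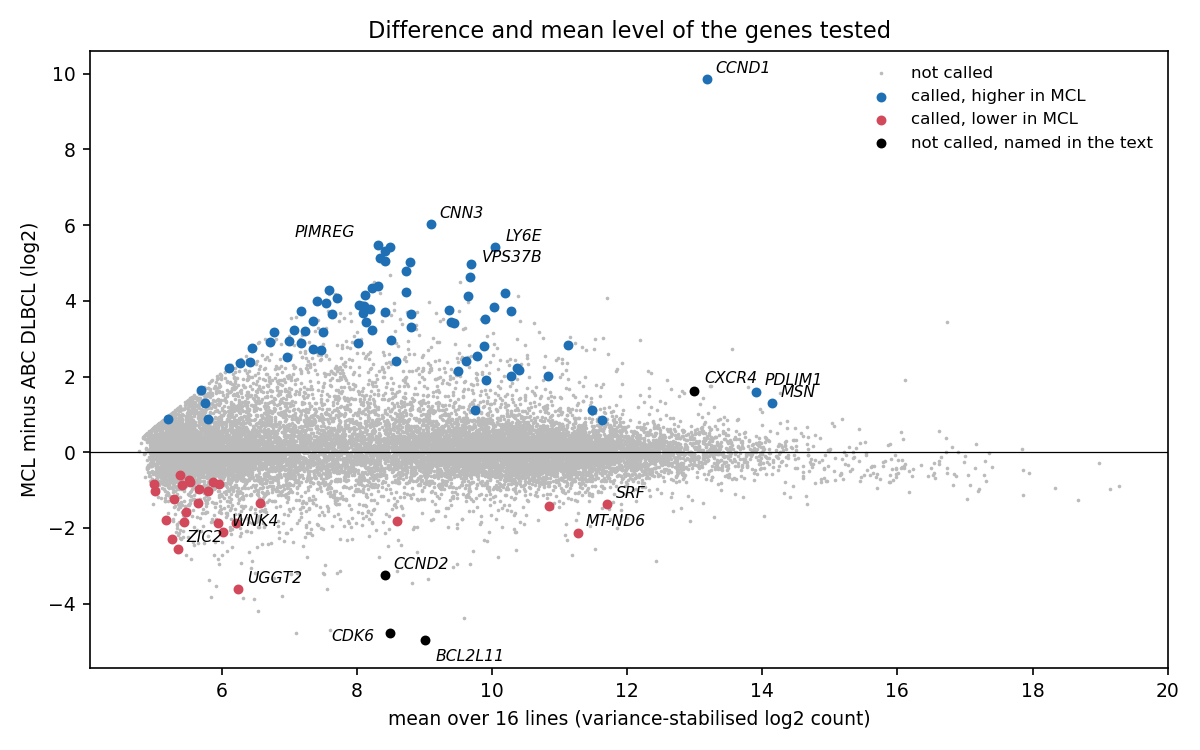
Difference between MCL and ABC DLBCL (log2, y axis) against the mean over the 16 lines (variance-stabilised log2 count, x axis) for the 17337 genes tested, with the 77 genes called higher and the 26 called lower in colour. CCND1 lies apart at 9.87, most genes called lower have a mean near the lowest value, and CDK6 and BCL2L11 lie lower still without passing the test.

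The D-type cyclins differed line by line. CCND1, which encodes cyclin D1 at chr11:69641156-69654474 (GRCh38), ranged in MCL from 12.59 in JVM2 to 17.36 in Z-138, with a median of 16.83. In ABC DLBCL it was at 5.02 in HBL-1, 4.55 in MD903, 6.50 in OCI-Ly10, 9.81 in OCI-Ly3 and 6.13 in SU-DHL-8. Every MCL line was above every ABC DLBCL line, and the difference was 9.87 ± 0.81 (SE, limma adjusted p = 4.1e-06), from means of 16.27 ± 1.43 (SD, n = 11) and 6.40 ± 2.06 (SD, n = 5). CCND2, the cyclin D2 gene, ranged in MCL from 4.55 in REC-1 to 13.24 in JVM2, with a median of 6.11, and was at 15.75 in HBL-1, 4.91 in MD903, 13.67 in OCI-Ly10, 14.15 in OCI-Ly3 and 4.82 in SU-DHL-8. Thus 3 ABC lines were high and MD903 and SU-DHL-8 were near the lowest value, and with this spread CCND2 was not called (-3.25 ± 1.82 SE, limma adjusted p = 0.46). CCND3, the cyclin D3 gene, ranged in MCL from 9.88 in Mino to 11.33 in HBL-2, with a median of 10.75. It was at 11.61 in HBL-1, 10.70 in MD903, 10.20 in OCI-Ly10, 10.20 in OCI-Ly3 and 15.99 in SU-DHL-8, so that SU-DHL-8 alone was high, and the difference was -1.16 ± 0.68 (SE, limma adjusted p = 0.48).

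Among the partners and inhibitors of these cyclins 1 gene was called. CDKN1C encodes p57, an inhibitor of cyclin-dependent kinases, and ranged in MCL from 6.39 in JVM2 to 12.46 in Z-138, with a median of 8.67. It was at 6.04 in HBL-1, 4.76 in MD903, 4.55 in OCI-Ly10, 4.55 in OCI-Ly3 and 4.55 in SU-DHL-8, below every MCL line, and the difference was 4.09 ± 0.72 (SE, limma adjusted p = 0.015). CDK6 was at 11.80 in HBL-1, 13.02 in MD903, 12.71 in OCI-Ly10, 11.80 in OCI-Ly3 and 9.56 in SU-DHL-8, while the MCL lines ran from 1 line at 0 reads (Jeko-1) to 11.12 in JVM2 around a median of 6.32. Its difference of -4.78 ± 1.09 (SE, limma adjusted p = 0.056) missed the threshold and passed when any of SU-DHL-8, GRANTA519 and JVM2 was left out (adjusted p of 0.020 to 0.038). CDK4 differed by 0.26 ± 0.34 (SE, limma adjusted p = 0.78). Of the 21 G1 to S regulators tested, 2 were called higher, CCND1 and CDKN1C, and 0 lower, with a median difference of -0.07. Of all genes tested 0.444% were called higher and 0.150% lower.

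SOX11 ranged in MCL from 4.84 in JVM2 to 13.09 in SP-49, with a median of 10.79, where JVM2 had 1 read. HBL-1 was at 8.39 and the other 4 ABC DLBCL lines had 0 reads. Thus 10 of 11 MCL lines were above HBL-1, and the difference was 5.03 ± 0.99 (SE, limma adjusted p = 0.028). SOX11 was not called when any of MD903, OCI-Ly10, OCI-Ly3 and SP-53 was left out (adjusted p of 0.053 to 0.084). Of the 14 genes of an MCL signature list 3 were called higher (SOX11, CCND1 and CNN3) and 0 lower, where 0.444% of all genes were called higher. In this list 13 of the 14 differences were above 0, with a median of 1.92 against 0.04 for all genes. It was chosen with earlier results of these data known, so its counts are no independent support. The other members included LGALS3BP, a secreted galectin-binding glycoprotein, at 3.67 (adjusted p = 0.13), and FARP1, a guanine nucleotide exchange factor, at 3.72 (adjusted p = 0.15). CD5, a surface protein often found on MCL cells, ranged in MCL from 4.55 in Z-138 to 11.40 in Mino, with a median of 7.40. It was at 4.82 in HBL-1, 10.38 in MD903, 12.09 in OCI-Ly10, 10.54 in OCI-Ly3 and 4.55 in SU-DHL-8, so both groups spanned nearly the same range (difference -0.65 ± 1.38 SE, limma adjusted p = 0.88).

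CNN3, which encodes the actin-binding protein calponin 3 at chr1:94896957-94927110, ranged in MCL from 9.13 in MAVER-1 to 12.89 in JVM2, with a median of 10.96. In ABC DLBCL it was at 5.13 in HBL-1, 4.84 in MD903, 5.12 in OCI-Ly10, 4.77 in OCI-Ly3 and 4.88 in SU-DHL-8, close to the lowest value in all 5. The groups were separated by 4.00, and the difference was 6.04 ± 0.46 (SE, limma adjusted p = 1.7e-06), from means of 10.98 ± 1.03 (SD, n = 11) and 4.95 ± 0.16 (SD, n = 5). It was also low in the other lymphomas with libraries of the same type, at 5.22 ± 0.96 in 6 GCB DLBCL lines and 4.90 ± 0.14 in 3 Burkitt lymphoma lines. CNN3-DT, a transcript on the opposite strand that starts inside CNN3, ranged in MCL from 5.46 in REC-1 to 8.91 in JVM2, with a median of 6.99, and at most 1 read in each ABC DLBCL line. Its difference was 2.22 ± 0.41 (SE, limma adjusted p = 0.020), and it was not called when either OCI-Ly10 or OCI-Ly3 was left out (adjusted p of 0.054 to 0.056). No source used here says whether reads were counted by strand, so reads where both genes overlap cannot be told apart.

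RHOB encodes a small GTPase of endosomes and the actin cytoskeleton, at chr2:20447074-20449440. It ranged in MCL from 7.88 in REC-1 to 11.79 in Mino, with a median of 10.22, and was at 4.98 in HBL-1, 4.55 in MD903, 4.86 in OCI-Ly10, 4.98 in OCI-Ly3 and 4.74 in SU-DHL-8, again without overlap (difference 5.12 ± 0.56 SE, limma adjusted p = 0.00015). INSR, the insulin receptor gene at chr19:7112265-7294414, ranged in MCL from 7.40 in JVM2 to 11.60 in Z-138, with a median of 10.23. It was at 4.82 in HBL-1, 4.91 in MD903, 4.55 in OCI-Ly10, 4.55 in OCI-Ly3 and 4.93 in SU-DHL-8, and the difference was 5.43 ± 0.54 (SE, limma adjusted p = 6.2e-05). Unlike CNN3, INSR was also read in the other lymphomas, with means of 7.57 ± 2.45 in 6 GCB DLBCL lines and 9.44 ± 0.61 in 3 Burkitt lymphoma lines, and NU-DUL-1, the sixth ABC line, was at 12.38. With NU-DUL-1 added INSR was not called (adjusted p = 0.063).

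The 250 bases before the outermost RefSeq start of CNN3, RHOB and INSR are shown because these are 3 of the 5 genes whose levels separated the groups by the widest gaps. The CNN3 stretch is chr1:94927111-94927360 on the minus strand, the RHOB stretch chr2:20446824-20447073 on the plus strand and the INSR stretch chr19:7294415-7294664 on the minus strand, in GRCh38.p14. Each is written 5′ to 3′ along its gene, and capitals mark the letters CCAAT or their reverse complement ATTGG, a box found in many promoters.
CNN3: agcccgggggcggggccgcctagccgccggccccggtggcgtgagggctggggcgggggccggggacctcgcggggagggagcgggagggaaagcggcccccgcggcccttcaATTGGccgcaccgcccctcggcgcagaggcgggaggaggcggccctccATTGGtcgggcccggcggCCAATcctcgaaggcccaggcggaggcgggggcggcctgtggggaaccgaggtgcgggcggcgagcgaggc
RHOB: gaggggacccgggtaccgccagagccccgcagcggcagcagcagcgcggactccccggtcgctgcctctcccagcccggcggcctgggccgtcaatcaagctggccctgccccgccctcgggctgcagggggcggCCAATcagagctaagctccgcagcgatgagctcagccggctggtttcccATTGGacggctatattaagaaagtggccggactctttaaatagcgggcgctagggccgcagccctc
INSR: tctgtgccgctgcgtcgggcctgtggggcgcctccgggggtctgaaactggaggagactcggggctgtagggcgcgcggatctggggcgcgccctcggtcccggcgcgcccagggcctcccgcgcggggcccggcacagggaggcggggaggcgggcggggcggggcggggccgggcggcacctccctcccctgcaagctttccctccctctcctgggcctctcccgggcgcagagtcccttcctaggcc
The box occurred 3 times in the CNN3 stretch, 2 times in that of RHOB and 0 times in that of INSR, and 32.0% of the 35116 stretches of this length in the table held it on either strand. The CNN3 stretch had 33 CG dinucleotides, RHOB 22 and INSR 28, against a median of 11 in the table. A share of 8.15% of the stretches had at least as many as CNN3, 28.0% as many as RHOB and 15.9% as many as INSR. No measurement of binding or methylation accompanied these sequences.

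Other genes of the cell's scaffold and surface differed as well. MAP1B, a microtubule-associated protein, ranged in MCL from 4.71 in HBL-2 to 13.17 in MAVER-1, with a median of 10.59, and was at 5.02 in HBL-1, 4.55 in MD903, 5.19 in OCI-Ly10, 4.55 in OCI-Ly3 and 4.55 in SU-DHL-8. HBL-2, with 1 MCL value inside the ABC range, was the exception to the separation (difference 5.31 ± 1.02 SE, limma adjusted p = 0.025), and the call was lost when either OCI-Ly10 or OCI-Ly3 was left out (adjusted p of 0.057 to 0.071). Of the 21 genes of the actin and microtubule list tested, 3 were called higher, CNN3, RHOB and MAP1B, and 0 lower, with a median of 1.07. Of all genes tested 0.444% were called higher. The list was chosen with earlier results of these data known, so its count is no independent support. Without MD903 and SU-DHL-8 the median of the list was 0.27. TPM2 (-2.95, adjusted p = 0.26) and CNN2 (-2.02, adjusted p = 0.28) had the lowest differences of the list.

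SPN (CD43), a mucin-like surface protein of leukocytes that is used in diagnosing MCL, had an MCL mean of 11.51 ± 0.77 (SD, n = 11) and a low of 10.05 in REC-1. It was at 6.41 in HBL-1, 5.01 in MD903, 7.79 in OCI-Ly10, 6.96 in OCI-Ly3 and 10.27 in SU-DHL-8, so only SU-DHL-8 reached the MCL range, and the difference was 4.22 ± 0.62 (SE, limma adjusted p = 0.0026). MSN, which encodes moesin, a linker of surface proteins such as CD43 to actin, ranged in MCL from 13.84 in UPN1 to 15.18 in REC-1, with a median of 14.67, and was at 13.14 in HBL-1, 12.98 in MD903, 13.26 in OCI-Ly10, 13.72 in OCI-Ly3 and 13.13 in SU-DHL-8. Both groups were abundant in MSN and did not overlap (difference 1.30 ± 0.25 SE, limma adjusted p = 0.025). Its call was lost when any of HBL-1, MD903 and OCI-Ly10 was left out (adjusted p of 0.053 to 0.062). PDLIM1, an adaptor at the actin cytoskeleton, was likewise abundant and separate, with means of 14.41 ± 0.60 (SD, n = 11) and 12.81 ± 0.36 (SD, n = 5) and a difference of 1.60 ± 0.29 (SE, limma adjusted p = 0.020). NU-DUL-1 was at 13.82 in PDLIM1. The mean was 10.22 ± 2.57 in 6 GCB DLBCL lines, with Toledo at 14.5, and 8.36 ± 3.42 in 3 Burkitt lymphoma lines. SPN, MSN and PDLIM1 were chosen after their values were seen.

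PIMREG, which encodes a mitotic regulator, had 0 reads in each of the 5 ABC DLBCL lines and 785 to 4927 reads in the MCL lines. Against a floor of 3 reads per ABC library it was at least 950-fold higher in RPM, at 28.9 ± 14.7 (SD, n = 11) in MCL. It was at 4.59 ± 0.10 in 6 GCB DLBCL lines and 4.67 ± 0.20 in 3 Burkitt lymphoma lines, that is, at or near 0 reads there too. The 19 proliferation genes tested had 0 calls, where 0.594% of all genes were called. Of their differences 16 were above 0, with a median of 0.36, and MKI67, the Ki-67 antigen, was at 0.16 (adjusted p = 0.90). Whether annotation or counting bears on the values of 0 was not tested.

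Among the rest of the 12 highest differences, VPS37B, a subunit of the ESCRT-I sorting complex, ranged in MCL from 10.37 in JVM2 to 12.81 in Z-138, with a median of 10.96, and was at 4.75 in HBL-1, 6.07 in MD903, 6.78 in OCI-Ly10, 5.30 in OCI-Ly3 and 8.52 in SU-DHL-8, without overlap (difference 4.96 ± 0.54 SE, limma adjusted p = 0.00014). ZNF358, a zinc finger gene, ranged in MCL from 6.36 in JVM2 to 11.19 in SP-49, with a median of 10.33, and was at 6.30 in HBL-1, 4.55 in MD903, 4.55 in OCI-Ly10, 4.55 in OCI-Ly3 and 4.74 in SU-DHL-8, and the highest ABC line was just under the lowest MCL line (difference 5.05 ± 0.60 SE, limma adjusted p = 0.00037). GNG7, a G-protein gamma subunit, ranged in MCL from 7.56 in REC-1 to 12.41 in Z-138, with a median of 10.34, and was at 7.15 in HBL-1, 5.06 in MD903, 4.77 in OCI-Ly10, 4.81 in OCI-Ly3 and 5.45 in SU-DHL-8 (difference 4.78 ± 0.69 SE, limma adjusted p = 0.0026). GNG7 did not set MCL apart from the other lymphomas, with 10.34 ± 2.91 in 6 GCB DLBCL lines and 11.03 ± 1.27 in 3 Burkitt lymphoma lines, and NU-DUL-1 was at 11.90, with which the call was lost (adjusted p = 0.089).

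LY6E and LGMN, also among the 12, rested on ABC groups that were split. LY6E, a lipid-anchored surface protein of the LY6 family, ranged in MCL from 9.26 in UPN1 to 13.92 in JVM2, with a median of 11.79, and was at 12.62 in HBL-1, 4.96 in MD903, 4.92 in OCI-Ly10, 4.55 in OCI-Ly3 and 4.55 in SU-DHL-8. HBL-1 was as high as the MCL lines, and the difference of 5.42 ± 1.13 (SE, limma adjusted p = 0.040) lost its call in 12 of the 16 fits that left out 1 line, all but those without JVM2, Jeko-1, UPN1 and HBL-1 (adjusted p of 0.050 to 0.12). LGMN, the lysosomal protease legumain, ranged in MCL from 8.14 in Mino to 13.13 in JVM2, with a median of 11.08, and was at 4.82 in HBL-1, 5.89 in MD903, 6.27 in OCI-Ly10, 10.92 in OCI-Ly3 and 4.55 in SU-DHL-8, where OCI-Ly3 lay in the MCL range. Its difference of 4.64 ± 0.95 (SE, limma adjusted p = 0.037) lost its call in 10 of the 16 fits that left out 1 line, all but those without HBL-2, JVM2, Mino, REC-1, UPN1 and OCI-Ly3 (adjusted p of 0.054 to 0.092).

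Further genes called higher were chosen after their values were seen. SPRY2, an inhibitor of receptor tyrosine kinase signalling, ranged in MCL from 5.87 in MAVER-1 to 10.79 in JVM2, with a median of 8.96. It had at most 2 reads in any ABC DLBCL line, and the difference was 4.29 ± 0.62 (SE, limma adjusted p = 0.0026). DNMT3A, a DNA methyltransferase, had means of 10.76 ± 1.24 (SD, n = 11) and 7.96 ± 0.74 (SD, n = 5) and a difference of 2.80 ± 0.56 (SE, limma adjusted p = 0.033), which was lost when any of MD903, OCI-Ly10, SU-DHL-8, GRANTA519, Jeko-1, MAVER-1, Mino, SP-53 and UPN1 was left out (adjusted p of 0.051 to 0.090).

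The genes that passed in every alternative included EGLN3, SSBP3 and ZNF354B. EGLN3, a prolyl hydroxylase that marks hypoxia-inducible factors for degradation, ranged in MCL from 8.15 in GRANTA519 to 10.65 in Jeko-1, with a median of 9.45, and was at 5.44 in HBL-1, 8.57 in MD903, 6.68 in OCI-Ly10, 5.52 in OCI-Ly3 and 6.17 in SU-DHL-8 (difference 2.96 ± 0.47 SE, limma adjusted p = 0.0066). SSBP3, a cofactor of LIM-domain transcription complexes, had means of 11.07 ± 0.53 (SD, n = 11) and 8.83 ± 0.76 (SD, n = 5) and a difference of 2.23 ± 0.32 (SE, limma adjusted p = 0.0026). Its pseudogene SSBP3P1 was called as well (0.87, adjusted p = 0.036) and was lost in 11 of the 16 fits that left out 1 line, all but those without HBL-2, JVM2, Mino, REC-1 and Z-138 (adjusted p of 0.050 to 0.11). How the counting split reads between such copies is not given in the sources used here. ZNF354B, a zinc finger gene, ranged in MCL from 5.67 in JVM2 to 8.88 in MAVER-1, with a median of 7.89, and was at 5.97 in HBL-1, 4.76 in MD903, 4.86 in OCI-Ly10, 4.77 in OCI-Ly3 and 4.55 in SU-DHL-8 (difference 2.94 ± 0.43 SE, limma adjusted p = 0.0026).

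AUTS2, a chromatin-associated gene named for autism susceptibility, was within a narrow span in MCL, between 10.66 in REC-1 and 11.90 in Z-138, with a median of 11.09. It was at 7.03 in HBL-1, 10.43 in MD903, 7.34 in OCI-Ly10, 7.61 in OCI-Ly3 and 4.55 in SU-DHL-8, and the difference was 3.85 ± 0.58 (SE, limma adjusted p = 0.0039). AUTS2 was at 10.98 in NU-DUL-1, 9.74 ± 2.24 in 6 GCB DLBCL lines and 9.95 ± 0.39 in 3 Burkitt lymphoma lines. Among the GCB DLBCL lines Toledo was at 12.40 and SU-DHL-5 at 11.04. LY86 (MD-1), which pairs with the Toll-like receptor homologue CD180 on B cells, had means of 11.08 ± 0.82 (SD, n = 11) and 8.90 ± 0.93 (SD, n = 5) and a difference of 2.17 ± 0.44 (SE, limma adjusted p = 0.033), lost when any of MD903, OCI-Ly10, OCI-Ly3, SU-DHL-8, GRANTA519, Jeko-1, SP-49 and SP-53 was left out (adjusted p of 0.050 to 0.11). P2RX7, an ATP-gated ion channel, ranged in MCL from 5.01 in REC-1 to 10.45 in Z-138, with a median of 8.49, below all ABC lines in REC-1 alone (difference 3.18 ± 0.66 SE, limma adjusted p = 0.039). Its call was lost in 11 of the 16 fits that left out 1 line, all but those without HBL-2, JVM2, REC-1, SP-49 and Z-138 (adjusted p of 0.050 to 0.10). PREX1, an exchange factor for Rac, differed by 2.83 ± 0.60 (SE, limma adjusted p = 0.041) and was lost in 11 of the 16 fits that left out 1 line, all but those without JVM2, UPN1, HBL-1, OCI-Ly10 and SU-DHL-8 (adjusted p of 0.054 to 0.12).

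**Figure D3:**
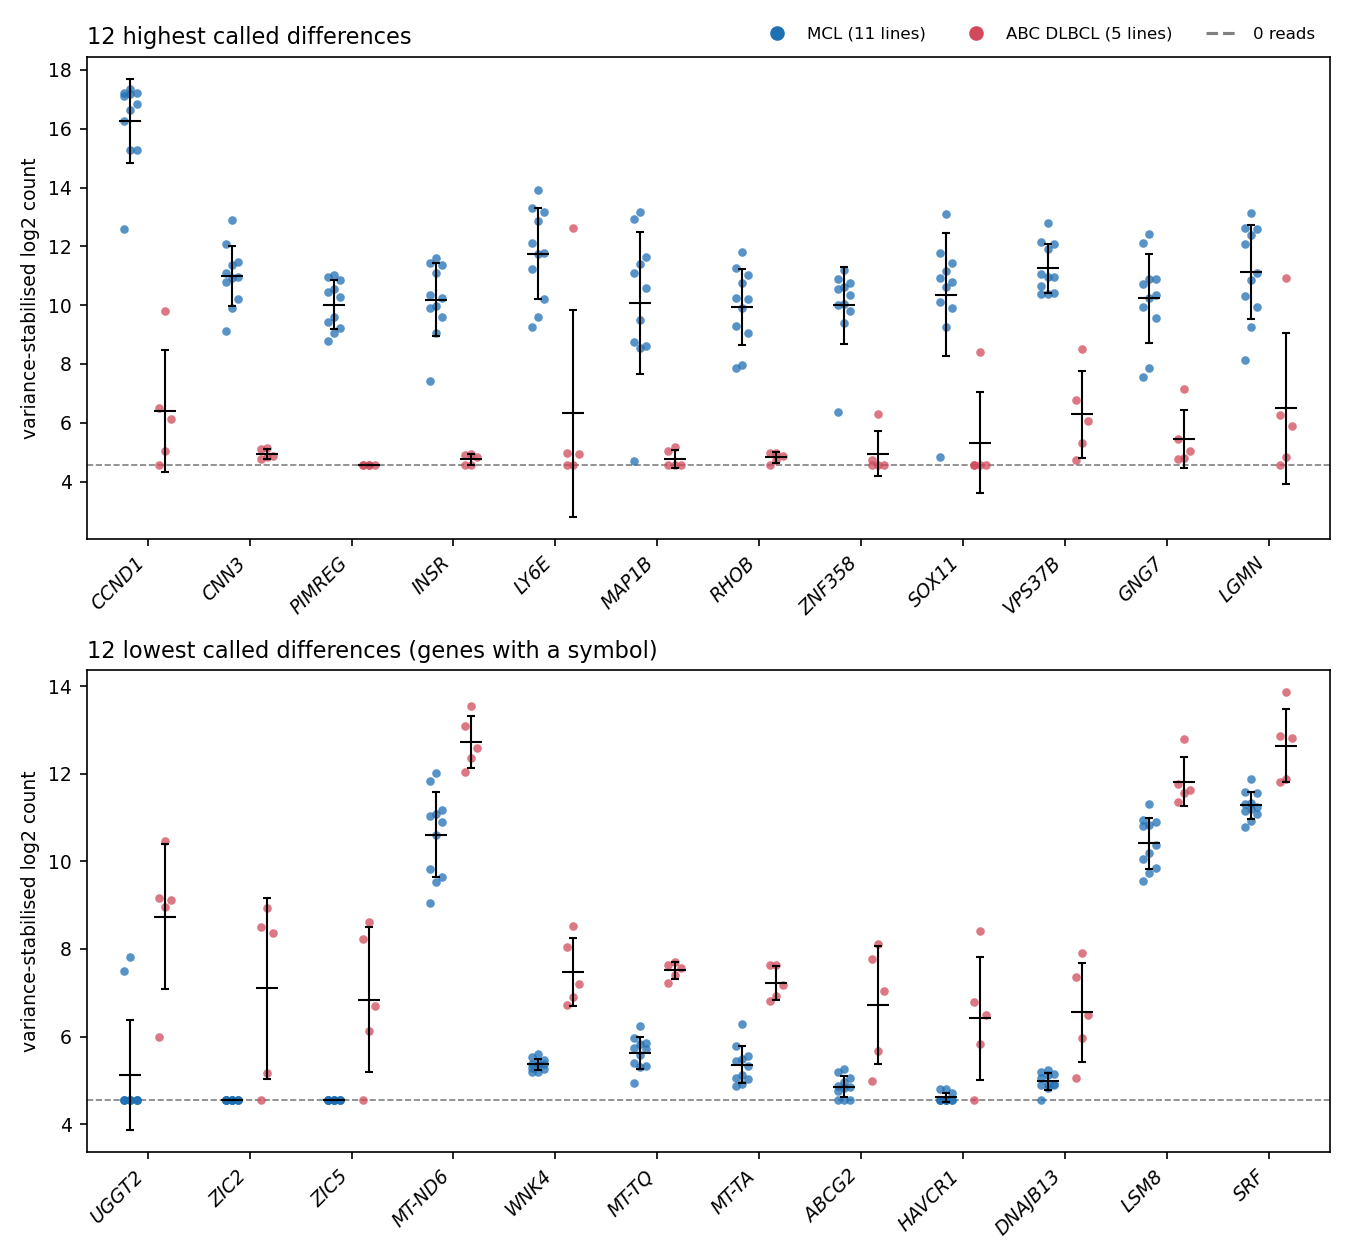
Variance-stabilised log2 counts of the 12 genes with the highest and the 12 with the lowest called differences among genes with a symbol, with 1 point per line, the mean and SD of each group in black, and the level of 0 reads as a dashed line. Cyclin D1, calponin 3, PIMREG, INSR, RHOB, ZNF358, VPS37B and GNG7 show no overlap, HBL-1 is the high ABC DLBCL point in LY6E and SOX11, and ZIC2, ZIC5, HAVCR1 and ABCG2 are at or near 0 reads in the MCL lines.

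With the filter used, fewer genes were called lower in MCL, and 22 of the 26 had an MCL mean under 7. That filter asked a gene without reads in MCL to pass in 3 of the 5 ABC DLBCL lines. A gene without reads in ABC DLBCL had to pass in 3 of the 11 MCL lines. The split moved with the filter: without one, 56 genes were called higher and 40 lower, with 71 of the 103 calls shared. With a stricter filter 76 were called higher and 10 lower. UGGT2, which encodes a glycoprotein glucosyltransferase of the endoplasmic reticulum, had 0 reads in 9 of 11 MCL lines. The exceptions were the like pair SP-49 and SP-53, at 7.49 and 7.81. In ABC DLBCL it was at 9.12 in HBL-1, 9.16 in MD903, 5.98 in OCI-Ly10, 8.96 in OCI-Ly3 and 10.46 in SU-DHL-8, and the difference was -3.62 ± 0.69 (SE, limma adjusted p = 0.025), not called when either HBL-1 or OCI-Ly3 was left out (adjusted p of 0.051 to 0.071). It was also present elsewhere, at 8.45 ± 0.51 in 6 GCB DLBCL lines and 8.28 ± 3.42 in 3 Burkitt lymphoma lines.

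ZIC2 and ZIC5 are neighbouring genes of zinc finger transcription factors known from neural development, at chr13:99981784-99986765 and chr13:99962964-99971909. Both had 0 reads in all 11 MCL lines and in SU-DHL-8. ZIC2 was at 8.92 in HBL-1, 8.36 in MD903, 5.16 in OCI-Ly10 and 8.50 in OCI-Ly3, with at most 1221 reads. The mean of the ABC group was 4.98 ± 4.65 RPM (SD, n = 5), and the MCL group was at least 136-fold lower against a floor of 3 reads per library. Its difference of -2.55 ± 0.55 (SE, limma adjusted p = 0.045) lost its call in 13 of the 16 fits that left out 1 line, all but those without JVM2, OCI-Ly10 and SU-DHL-8 (adjusted p of 0.061 to 0.14). ZIC5 was at 8.22, 8.63, 6.69 and 6.13 in the same 4 lines (difference -2.29 ± 0.44 SE, limma adjusted p = 0.025), and was at least 92.5-fold lower in MCL by the same floor. It was not called when either HBL-1 or OCI-Ly10 was left out (adjusted p of 0.058 to 0.061).

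WNK4, a kinase of ion transport, ranged in MCL from 5.18 in Jeko-1 to 5.59 in HBL-2, with a median of 5.36, and was at 8.05 in HBL-1, 6.71 in MD903, 6.90 in OCI-Ly10, 7.19 in OCI-Ly3 and 8.52 in SU-DHL-8, and the groups were separated by 1.12. Its difference was -2.11 ± 0.26 (SE, limma adjusted p = 0.0004). SRF, the serum response factor that controls actin and immediate-early genes, ranged in MCL from 10.79 in JVM2 to 11.87 in REC-1, with a median of 11.24, and was at 13.86 in HBL-1, 11.81 in MD903, 12.86 in OCI-Ly10, 12.81 in OCI-Ly3 and 11.88 in SU-DHL-8. The difference was -1.37 ± 0.28 (SE, limma adjusted p = 0.037), and the call was lost in 10 of the 16 fits that left out 1 line, all but those without GRANTA519, JVM2, Jeko-1, REC-1, MD903 and SU-DHL-8 (adjusted p of 0.051 to 0.10). ACTA1, a skeletal muscle actin that SRF is known to regulate, was near the floor in both groups, 5.20 ± 0.13 against 5.81 ± 0.16 (SD, n = 11 and 5), and called lower (-0.61, adjusted p = 0.042). That call was lost in 13 of the 16 fits that left out 1 line, all but those without JVM2, REC-1 and SU-DHL-8 (adjusted p of 0.050 to 0.11). ACTA1 was chosen after its values were seen. No MCL line reached the filter for it, so it was tested only through the ABC lines, where it was higher.

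Another 4 genes completed the 12 lowest outside the mitochondrion. ABCG2, a drug efflux transporter, ranged in MCL from 4.55 in Jeko-1 to 5.27 in SP-53, with a median of 4.84, and was at 5.67 in HBL-1, 7.04 in MD903, 8.11 in OCI-Ly10, 7.77 in OCI-Ly3 and 4.98 in SU-DHL-8 (difference -1.85 ± 0.38 SE, limma adjusted p = 0.039). It was lost in 13 of the 16 fits that left out 1 line, all but those without JVM2, HBL-1 and SU-DHL-8 (adjusted p of 0.050 to 0.12). HAVCR1 (TIM-1), an immune surface receptor, had 0 reads in 8 MCL lines and in SU-DHL-8 and was at up to 8.42 in MD903 (difference -1.80 ± 0.38 SE, limma adjusted p = 0.042). This was lost in 13 of the 16 fits that left out 1 line, all but those without JVM2, MD903 and SU-DHL-8 (adjusted p of 0.055 to 0.10). DNAJB13, a cochaperone known from sperm flagella, had means of 4.98 ± 0.20 against 6.56 ± 1.13 (difference -1.58 ± 0.33 SE, limma adjusted p = 0.039) and was lost in 12 of the 16 fits that left out 1 line, all but those without HBL-2, JVM2, MD903 and SU-DHL-8 (adjusted p of 0.050 to 0.12). LSM8, a core protein of the U6 small nuclear RNP, was the abundant exception, at 10.41 ± 0.58 against 11.82 ± 0.56 and without overlap (difference -1.41 ± 0.31 SE, limma adjusted p = 0.046). It was lost in 15 of the 16 fits that left out 1 line, all but those without JVM2 (adjusted p of 0.051 to 0.12).

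The mitochondrial genome gave 6 of the 26 genes called lower. Its genes are transcribed from both strands as long precursors, from which the tRNAs are cut. MT-ND6, the only protein gene of the light strand and a subunit of complex I, ranged in MCL from 9.06 in MAVER-1 to 12.01 in Jeko-1, with a median of 10.90. It was at 12.59 in HBL-1, 12.37 in MD903, 13.10 in OCI-Ly10, 13.55 in OCI-Ly3 and 12.04 in SU-DHL-8, above every MCL line, and the difference was -2.12 ± 0.45 (SE, limma adjusted p = 0.041). MT-ND6 was not called in 11 of the 16 fits that left out 1 line, all but those without JVM2, Jeko-1, REC-1, Z-138 and SU-DHL-8 (adjusted p of 0.050 to 0.13). The tRNA genes MT-TQ (-1.88, adjusted p = 0.00034), MT-TA (-1.88, adjusted p = 0.001), MT-TS1 (-1.34, adjusted p = 0.00014) and MT-TY (-1.25, adjusted p = 0.0079) are on the light strand too, and their groups did not overlap. MT-TQ had 6 to 73 reads in MCL libraries and 254 to 561 in ABC DLBCL libraries. MT-TD, a tRNA gene of the heavy strand, was the sixth (-1.02, adjusted p = 0.020) and was not called without OCI-Ly3 (adjusted p = 0.055).

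By strand, 5 of 7 light-strand genes tested and 1 of 19 heavy-strand genes were called lower, where 0.150% of all genes were. The median difference was -1.34 on the light strand and -0.98 on the heavy strand, a grouping made after the values were seen and not tested. Strand was mixed with kind of gene, as 12 of the 19 heavy-strand genes were protein genes. Among tRNA genes 4 of 6 on the light strand and 1 of 5 on the heavy strand were called, with medians of -1.29 and -1.02. The tRNA genes MT-TN and MT-TC (light) and MT-TF and MT-TL1 (heavy) did not pass the filter. All 7 light-strand and 18 of 19 heavy-strand genes had differences below 0. The median of the 13 protein genes was -0.94, and with quantile normalization -0.55. Among the 13 protein genes the heavy-strand gene nearest to a call was MT-ND4 (-1.26, adjusted p = 0.056). Reads of the 30 mitochondrial genes in the table made up 4.78 to 11.6% of the reads in MCL and 11.3 to 14.9% in ABC DLBCL. A smaller share of such reads and less of these RNAs per cell cannot be told apart here, and the part of library preparation was not tested.

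**Figure D4:**
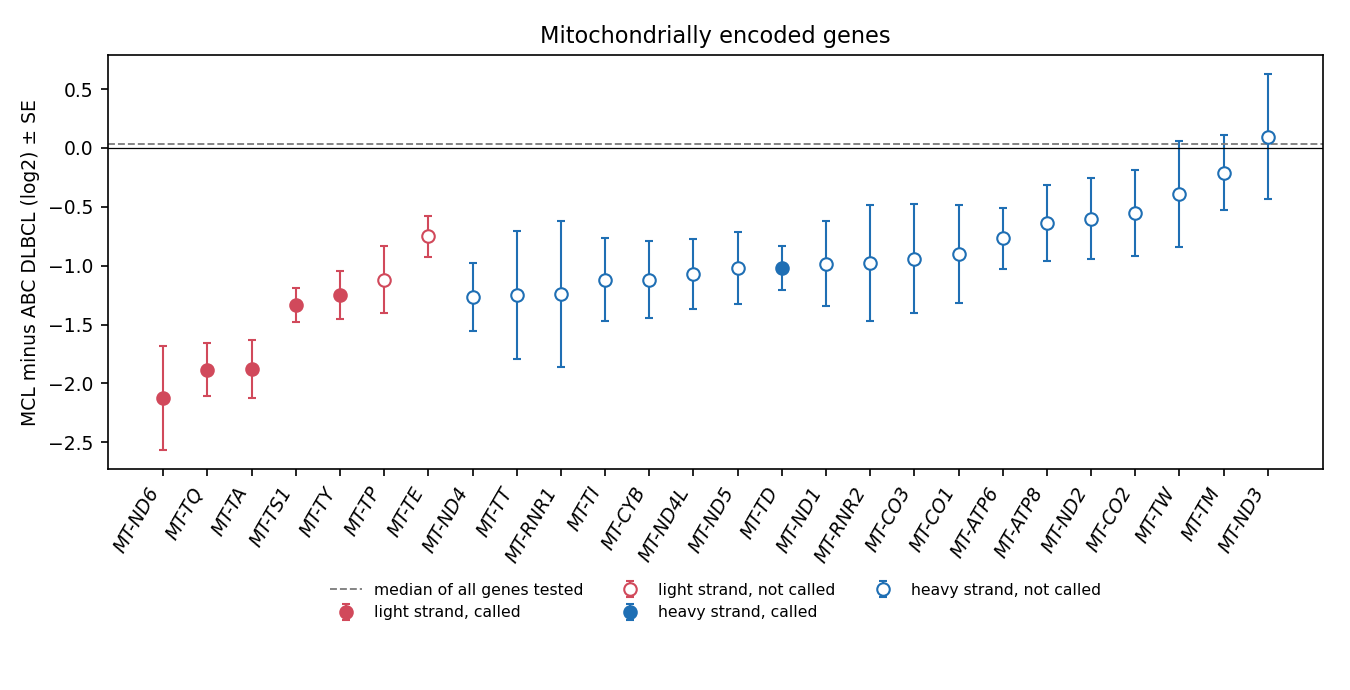
Difference between MCL and ABC DLBCL (log2, with the standard error from limma) for the 26 mitochondrially encoded genes tested, ordered by strand and difference. Filled points passed the threshold: 5 light-strand genes and MT-TD of the heavy strand, and MT-ND3 is the single gene above 0.

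No gene of the ABC classifier and activated B-cell lists was called with all 5 ABC lines. With 0.594% of all genes called, lists of this size would mostly hold 0 calls. The same limit applies to the other lists with 0 calls. Of the 8 ABC classifier genes 0 were called, 3 differences were above 0 and the median was -0.85. IRF4, the regulator of plasma cell fate, ranged in MCL from 11.10 in REC-1 to 13.73 in GRANTA519, with a median of 13.11, and was at 14.40 in HBL-1, 13.02 in MD903, 14.95 in OCI-Ly10, 14.59 in OCI-Ly3 and 13.28 in SU-DHL-8, and thus overlapped (difference -1.34 ± 0.47 SE, limma adjusted p = 0.21). PIM2, a serine/threonine kinase, ranged in MCL from 11.04 in HBL-2 to 14.46 in Mino, with a median of 12.79, and was at 15.74 in HBL-1, 12.12 in MD903, 15.22 in OCI-Ly10, 15.08 in OCI-Ly3 and 10.95 in SU-DHL-8 (difference -1.26 ± 0.71 SE, limma adjusted p = 0.46), and RAB29, a small GTPase, differed by -1.65 ± 0.66 (SE, limma adjusted p = 0.28). LIMD1, a LIM-domain scaffold, differed by -0.43 ± 0.33 (SE, limma adjusted p = 0.61), CCDC50, a ubiquitin-binding signalling protein, by 0.46 ± 0.56 (SE, limma adjusted p = 0.77), and TNFRSF13B by 0.13 ± 1.19 (SE, limma adjusted p = 0.97). CREB3L2, a membrane-bound transcription factor, was at 4.82 in SU-DHL-8 and at 11.72 or more in the other 4 ABC lines (difference 0.36 ± 1.05 SE, limma adjusted p = 0.92). The differences of CREB3L2, TNFRSF13B and CCDC50 fell below 0 without SU-DHL-8 and MD903, at -1.45, -2.26 and -0.058.

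Of 22 activated B-cell genes 0 were called, 20 differences were below 0 and the median was -0.91. With HBL-1, OCI-Ly10 and OCI-Ly3 alone the medians of the ABC classifier and of the activated B-cell genes were -2.10 and -2.56, but these 3 lines were kept for their classifier values, so that change is no test. STAT3, a transcription factor downstream of interleukin receptors, was split among the ABC lines, at 13.42 in HBL-1, 10.30 in MD903, 14.36 in OCI-Ly10, 13.74 in OCI-Ly3 and 10.08 in SU-DHL-8, against MCL values from 9.68 in REC-1 to 12.42 in JVM2 with a median of 10.64 (difference -1.62 ± 0.63 SE, limma adjusted p = 0.27). NFKBIZ, an atypical inhibitor of the NF-kB family, was at 14.06 in HBL-1, 11.87 in MD903, 13.65 in OCI-Ly10, 12.43 in OCI-Ly3 and 8.62 in SU-DHL-8, against MCL values from 7.66 in UPN1 to 12.06 in SP-49 with a median of 8.97, and differed by -2.58 ± 0.81 (SE, limma adjusted p = 0.16). It passed without SU-DHL-8 (adjusted p = 0.026).

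Of the 20 NF-kB factors and regulators tested 0 were called, 4 differences were above 0 and the median was -0.51. Of the 23 NF-kB target genes 0 were called, with a median of -0.60. TNFAIP3, the A20 brake on NF-kB that is often deleted in lymphoma, ranged in MCL from 7.69 in HBL-2 to 12.79 in JVM2, with a median of 10.32, and was at 13.87 in HBL-1, 11.80 in MD903, 11.93 in OCI-Ly10, 12.70 in OCI-Ly3 and 12.64 in SU-DHL-8 (difference -2.20 ± 0.71 SE, limma adjusted p = 0.18). In 8 MCL lines it was below every ABC DLBCL line. Without MD903 and SU-DHL-8, NFKBIZ (-3.84) of the NF-kB factors and the targets CFLAR (-2.56), an inhibitor of caspase 8, and IL10 (-3.11), a cytokine, were called lower (limma adjusted p of 0.0012 to 0.046). With all 5 ABC lines CFLAR differed by -0.95 (limma adjusted p = 0.62) and IL10 by -1.57 (limma adjusted p = 0.3). CFLAR was at 10.17 in MD903 and 9.56 in SU-DHL-8, below its MCL mean of 11.34. IL10 was at 4.55 in both, below its MCL mean of 5.29. In the fit without MD903 and SU-DHL-8, whose 3 ABC lines were kept for their classifier values, the JAK-STAT list (21 tested) had STAT3 (-3.08, adjusted p = 0.001) and IL10 called lower, where the 5 lines had given 0.

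**Figure D5:**
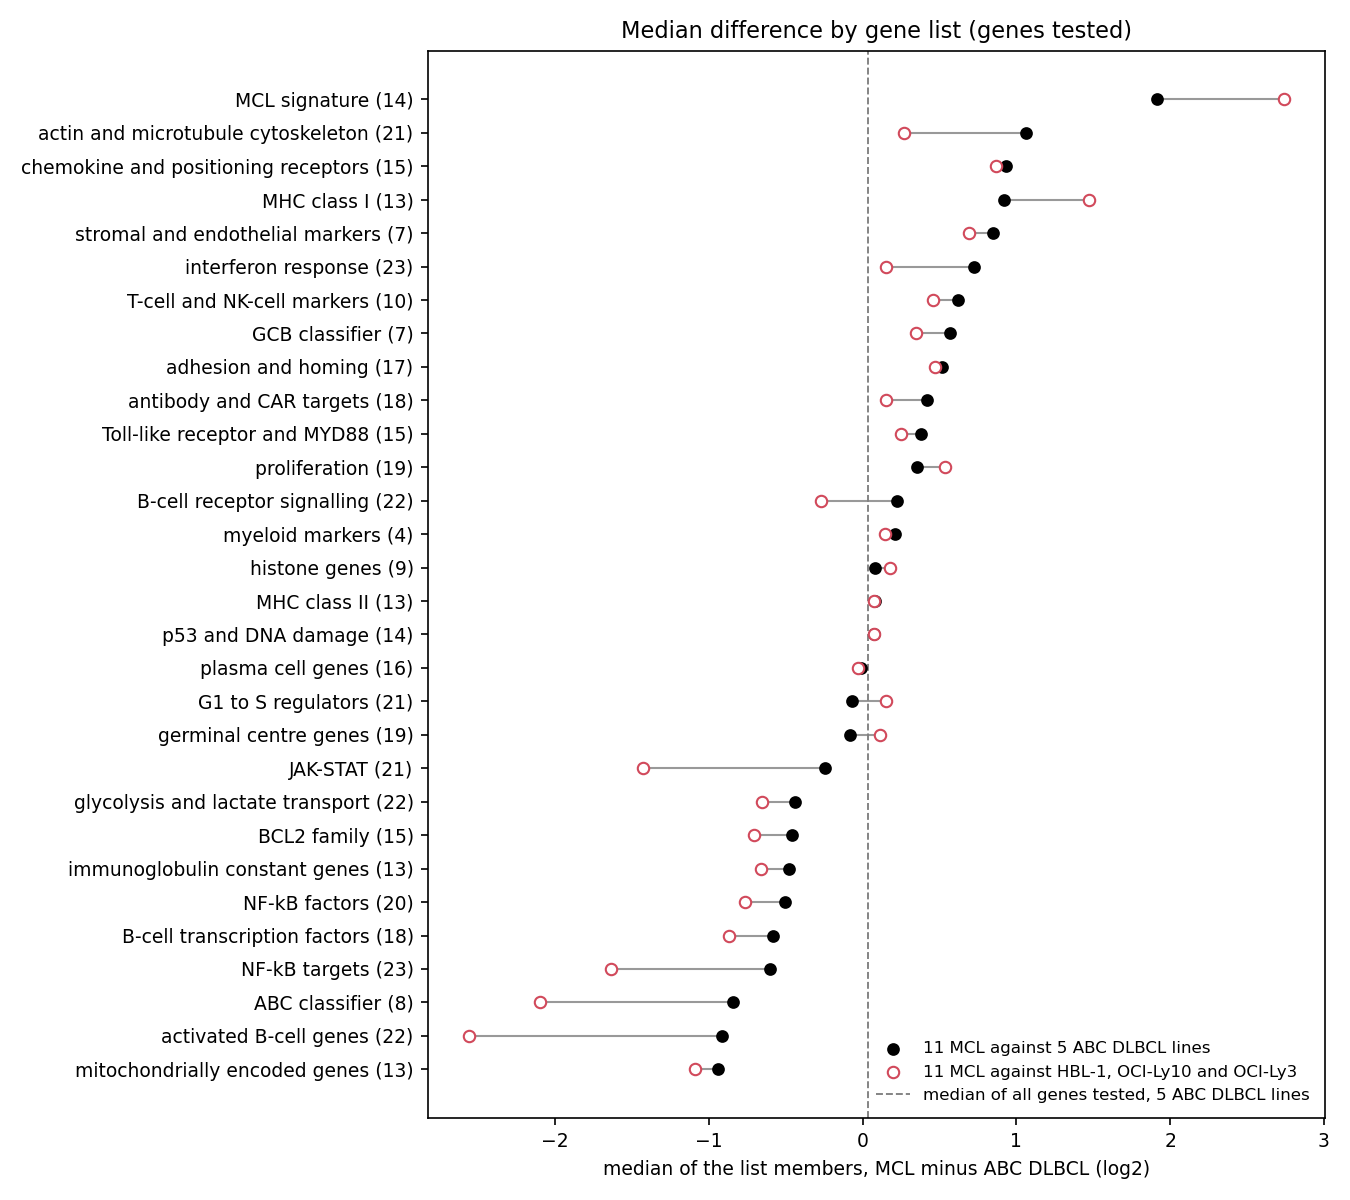
Median difference (log2) of the tested members of 30 gene lists, with filled points for all 5 ABC DLBCL lines and open points for HBL-1, OCI-Ly10 and OCI-Ly3, the number of genes tested in brackets. The MCL signature lies highest at 1.92, the mitochondrially encoded genes lowest at -0.94 (-0.55 with quantile normalization, above the activated B-cell and ABC classifier lists), and the activated B-cell and ABC classifier lists move furthest when MD903 and SU-DHL-8 are left out.

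Germinal centre genes divided the ABC lines in another way. BCL6, the repressor that maintains the germinal centre state, ranged in MCL from 5.45 in JVM2 to 11.55 in SP-53, with a median of 7.49, and was at 12.88 in HBL-1, 13.25 in MD903, 12.57 in OCI-Ly10, 10.68 in OCI-Ly3 and 7.43 in SU-DHL-8, high in all but SU-DHL-8 (difference -3.35 ± 0.98 SE, limma adjusted p = 0.14). It passed without SU-DHL-8 (adjusted p = 0.027). RGS13, a regulator of G-protein signalling in germinal centre B cells, ranged in MCL from 4.55 in Mino to 8.62 in HBL-2, with a median of 5.37, and was at 11.96 in HBL-1, 5.80 in MD903, 9.14 in OCI-Ly10, 9.43 in OCI-Ly3 and 11.18 in SU-DHL-8. Its difference was -3.79 ± 0.86 (SE, limma adjusted p = 0.056), and it passed when any of MD903, HBL-2 and JVM2 was left out (adjusted p of 0.0081 to 0.033). Of the 19 germinal centre genes tested 0 were called, with a median of -0.08, and without MD903 and SU-DHL-8 BCL6 (-4.04, adjusted p = 0.047) and RGS13 (-4.46, adjusted p = 0.010) were called lower. Of the 7 GCB classifier genes 0 were called, with a median of 0.57. Among the latter ITPKB, an inositol trisphosphate kinase, differed by 1.60, MYBL1 by 1.18, the receptor S1PR2 by 1.08 and ASB13 by 0.57. MAML3 differed by 0.51, MME by -0.43 and the serpin SERPINA9 by -1.64, with adjusted p of 0.25 to 0.91 for the 7.

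BCL2L11 (BIM), a pro-apoptotic member of the BCL2 family whose locus is deleted in some MCL lines, had 0 reads in Jeko-1, a median of 6.02 over the MCL lines and its highest MCL value, 12.92, in MAVER-1. In ABC DLBCL it was at 12.60 in HBL-1, 10.41 in MD903, 13.65 in OCI-Ly10, 13.39 in OCI-Ly3 and 12.02 in SU-DHL-8. The difference of -4.96 ± 1.34 (SE, limma adjusted p = 0.11) was the lowest of all genes tested and did not pass, and 9 MCL lines were below every ABC line. It passed within the re-analysed lines (adjusted p = 0.035). The other 14 BCL2 family genes tested had 0 calls.

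Immunoglobulin heavy chain genes showed opposite signs without a call. IGHD, for the delta chain of naive B cells, ranged in MCL from 9.50 in SP-49 to 15.24 in GRANTA519, with a median of 13.35, and was at 10.29 in HBL-1, 11.52 in MD903, 10.82 in OCI-Ly10, 6.99 in OCI-Ly3 and 4.88 in SU-DHL-8 (difference 4.08, limma adjusted p = 0.080), and passed without MD903 (adjusted p = 0.045). IGHM, for the mu chain, ranged in MCL from 14.48 in SP-49 to 19.17 in GRANTA519, with a median of 17.79, and was at 19.42 in HBL-1, 15.99 in MD903, 17.84 in OCI-Ly10, 13.06 in OCI-Ly3 and 5.54 in SU-DHL-8, so that OCI-Ly3 and SU-DHL-8 were below all MCL lines. IGHG1, for the gamma 1 chain, ranged in MCL from 5.27 in Z-138 to 13.36 in SP-53, with a median of 7.02, and was at 14.81 in HBL-1, 7.17 in MD903, 11.19 in OCI-Ly10, 14.78 in OCI-Ly3 and 15.06 in SU-DHL-8 (difference -4.39 ± 1.47 SE, limma adjusted p = 0.20). The 13 constant genes tested had a median of -0.48, and genes this alike can share reads.

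CXCR4, the receptor for the chemokine CXCL12 that guides B cells to bone marrow and is the study's target for radioligands, ranged in MCL from 10.17 in REC-1 to 15.37 in SP-53, with a median of 14.25. It was at 8.84 in HBL-1, 11.93 in MD903, 13.86 in OCI-Ly10, 10.18 in OCI-Ly3 and 14.59 in SU-DHL-8, so that the ABC lines spanned nearly the whole MCL range and beyond it at the low end. The means were 13.49 ± 1.68 (SD, n = 11) and 11.88 ± 2.42 (SD, n = 5), and the difference was 1.61 in favour of MCL (exact two-sided permutation test over 4368 regroupings, p = 0.15). The smallest p this design allows is 0.000458. Thus 9 MCL lines were above the ABC median. Over the 24 alternatives the difference was 0.85 to 2.53 and the exact p 0.063 to 0.42, and it was 0.85 without HBL-1. Among the 15 chemokine and positioning receptors tested 0 were called, 11 differences were above 0 and the median was 0.93.

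Of surface molecules used for homing or therapy, ITGA4 came nearest to a call. ITGA4 encodes the alpha 4 integrin, and ranged in MCL from 10.49 in MAVER-1 to 12.53 in SP-49, with a median of 11.20, and was at 4.75 in HBL-1, 10.16 in MD903, 7.79 in OCI-Ly10, 5.99 in OCI-Ly3 and 11.52 in SU-DHL-8. All ABC lines but SU-DHL-8 were thus below all MCL lines, and the difference of 3.46 ± 0.79 (SE, limma adjusted p = 0.056) passed when either MD903 or SU-DHL-8 was left out (adjusted p of 0.005 to 0.035). TLR7, an endosomal receptor of RNA, ranged in MCL from 8.73 in UPN1 to 11.54 in SP-49, with a median of 10.29, and was at 7.18 in HBL-1, 10.22 in MD903, 6.04 in OCI-Ly10, 7.91 in OCI-Ly3 and 4.55 in SU-DHL-8 (difference 2.91 ± 0.67 SE, limma adjusted p = 0.058), and passed without MD903 (adjusted p = 0.0066). ROR1, a receptor under study as an antibody target in MCL, ranged in MCL from 5.40 in JVM2 to 11.39 in HBL-2, with a median of 10.23, and was at 4.82 in HBL-1, 10.29 in MD903, 4.98 in OCI-Ly10, 5.24 in OCI-Ly3 and 5.75 in SU-DHL-8. MD903 was in the MCL range, and the difference of 3.53 ± 1.01 (SE, limma adjusted p = 0.13) passed when either MD903 or JVM2 was left out (adjusted p of 0.031 to 0.037). The lists of adhesion and homing genes (17 tested), antibody targets (18) and Toll-like receptor genes (15) had 0 calls. Without MD903 and SU-DHL-8, ITGA4 (5.32), ROR1 (4.73) and TLR7 (3.05) were the single member called higher in each of these lists, as was S1PR4 (4.54), a sphingosine phosphate receptor, among the chemokine and positioning receptors (adjusted p of 2.7e-05 to 0.025). With all 5 ABC lines S1PR4 differed by 2.23 (limma adjusted p = 0.37). The lines left out, MD903 at 10.12 and SU-DHL-8 at 11.93, were above its MCL mean of 9.79.

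The other lists had 0 calls as well, where 0.594% of all genes were called. Their medians were -0.44 for 22 genes of glycolysis and lactate transport, of which 17 were below 0, 0.92 for 13 genes of MHC class I, 0.08 for 13 of MHC class II and 0.72 for 23 of the interferon response. They were -0.25 for 21 genes of JAK-STAT signalling, 0.23 for 22 of B-cell receptor signalling, -0.59 for 18 B-cell transcription factors, -0.01 for 16 plasma cell genes and 0.07 for 14 of p53 and DNA damage. Some medians moved with the scale: glycolysis was -0.27 with quantile normalization, MHC class II -0.06 and p53 -0.07 after median-centring, and with voom the germinal centre genes were 0.14, the MCL signature 3.79, the chemokine and positioning receptors 1.71 and the NF-kB targets -0.97. Without MD903 and SU-DHL-8, SPIB (-2.59), a transcription factor of the ETS family, CCND2 (-7.11) and the pro-apoptotic BMF (-2.62) were called lower among the B-cell transcription factors, the G1 to S regulators and the BCL2 family (adjusted p of 0.010 to 0.033). With all 5 ABC lines SPIB differed by -1.48 (limma adjusted p = 0.34) and BMF by -0.55 (limma adjusted p = 0.83). SPIB was at 13.48 in MD903 and 10.83 in SU-DHL-8, against an MCL mean of 12.33. BMF was at 9.09 in MD903 and 6.94 in SU-DHL-8, below its MCL mean of 10.57. SLC16A7, the monocarboxylate transporter MCT2, had 0 reads in 3 MCL lines and was at 10.54 in HBL-1, 9.14 in MD903, 10.18 in OCI-Ly10, 9.91 in OCI-Ly3 and 9.75 in SU-DHL-8. In all, 10 MCL lines were below every ABC line, and SLC16A7 was not called (difference -3.18 ± 0.89 SE, limma adjusted p = 0.12).

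Called genes were spread over the chromosomes. Of the 15635 tested genes with a position 90 were called, 8 on chromosome 1 (0.499%), 8 on chromosome 2 (0.771%), 6 on chromosome 19 (0.520%) and 6 on chromosome 7 (0.786%). Chromosome 13 had the highest share, with 1 gene higher and 3 lower of 299 (1.34%), and chromosome 3 had 0 of 855. A total of 26 called genes had another called gene within 1 Mb, in 14 neighbouring pairs, and in all 14 pairs both differences had the same sign. Of the 103 called genes 77 were higher in MCL, which alone makes pairs of the same sign common. CNN3 with CNN3-DT and FIRRE with MCRIP2P1 overlap and may share reads. No share over all genes tested was taken for comparison, so these counts do not show clustering. These pairs were found after the values were seen and were not tested.

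The pairs lower in MCL were limited to ZIC5 with ZIC2, 9.88 kb apart on chromosome 13. CDKN1C and KCNQ1, a potassium channel gene (3.23, adjusted p = 0.014), lay 34.1 kb apart on chromosome 11 in a region known for imprinting. SPN and C16orf54 (2.73, adjusted p = 0.032) lay 71.6 kb apart on chromosome 16, and C16orf54 was not called when any of HBL-1, MD903, OCI-Ly10, OCI-Ly3, SP-49 and SP-53 was left out (adjusted p of 0.052 to 0.10). GNG7 and DIRAS1, a Ras-related GTPase (4.39, adjusted p = 0.020), lay 11.9 kb apart on chromosome 19, and DIRAS1 was lost when either OCI-Ly10 or OCI-Ly3 was left out (adjusted p of 0.057 to 0.061). INSR and ZNF358 lay 219 kb apart on the same chromosome, with 2 tested genes between them at a median difference of 0.48. On chromosome 9, NACC2, DIPK1B, NPDC1 and NRARP (3.46, adjusted p = 0.0079, 3.86, adjusted p = 0.046, 1.65, adjusted p = 0.048 and 3.43, adjusted p = 0.045) followed each other at 617, 315 and 253 kb. The tested genes between them, 19, 20 and 20 in number, had medians of -0.09, -0.17 and 0.04. NRARP, a target and inhibitor of Notch signalling, was lost in 12 of the 16 fits that left out 1 line, all but those without JVM2, MAVER-1, HBL-1 and OCI-Ly10 (adjusted p of 0.055 to 0.14), and DIPK1B in 14 of the 16 fits that left out 1 line, all but those without JVM2 and OCI-Ly3 (adjusted p of 0.054 to 0.12). NPDC1 had 0 reads in all ABC DLBCL lines and 8 to 408 in MCL, at least 39.0-fold higher in RPM against the floor of 3 reads per library, and its call was lost in 14 of the 16 fits that left out 1 line, all but those without JVM2 and Jeko-1 (adjusted p of 0.052 to 0.12). FIRRE, a long noncoding RNA of the X chromosome (2.89, adjusted p = 0.014), overlaps the pseudogene MCRIP2P1 (0.86, adjusted p = 0.027), so their reads may be shared. FIRRE was not called without OCI-Ly3 (adjusted p = 0.051), and MCRIP2P1 when any of MD903, OCI-Ly10 and OCI-Ly3 was left out (adjusted p of 0.051 to 0.081).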

How the data were processed

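Per the labels, RNA of 34 lymphoma lines was sequenced with Illumina protocols at several points in time, and 16 libraries were used. The authors deposited variance-stabilised log2 counts per gene (31975 genes). The submitters' processing notes name STAR 2.5.3a, R 3.6.1, DESeq2 1.26.0 and build GRCh38, without roles. Inverting the transform at its lowest value (4.55) gave whole reads within 0.05 for every value of every library. Totals were 60.1 to 165 M reads (M, 1e+06), and the 11 and 5 lines limit the precision. Genes were tested where at least 3 of 16 lines lay over 1 above that value. The 2 group means were fitted with limma 3.58.1 in R 4.3.3 (intensity-dependent prior, 14 residual degrees of freedom, Benjamini-Hochberg adjustment over all genes). The fit was tested on simulated data with 50 changed genes per fold. It recovered 12% of 2-fold, 38% of 4-fold, 62% of 8-fold and 76% of 16-fold changes, with 9 false calls. A gene not called may therefore still differ. Named genes were the 12 highest and 12 lowest called genes with a symbol, the 5 widest gaps in each direction, up to 4 called members per list, CXCR4, the D-type cyclins with CDK4 and CDK6, SOX11 and the classifier genes. Another 45 were chosen after their values were seen. CXCR4 had an exact permutation test (NumPy 2.4.6, SciPy 1.17.1). Symbols matched 31574 identifiers, and 495 of 503 entries of 30 lists were in the table. Positions and promoter sequences are from RefSeq (GRCh38.p14). Groups came from the pathology labels. The alternatives changed the lines, scaling, filter, prior, depth term and scale, and left out each line. The members and lists were chosen with earlier results of these data known. Some results are not reported here.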

Additional observations from a re-analysis of the deposited data

Results flagged for a closer look

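In 89 ABC DLBCL groups of 5 lines examined, 16 had a highest or lowest line whose distance to the nearest other line exceeded 0.71 of the group's whole range. The cutoff was set for about 1 in 20 groups by chance, but that rate cannot be applied here. In SOX11, CTSF, CNN3-DT and MCRIP2P1 all ABC DLBCL lines but the high one tied at the lowest value. Many of the genes examined were also chosen by their values. Whether 16 of 89 is more than chance gives therefore cannot be told. Groups of 11 lines were not examined. HBL-1 was the high line in LY6E (12.62), SOX11 (8.39), GNG7 (7.15), ZNF358 (6.30), CDKN1C (6.04), P2RX7 (5.99), ZNF354B (5.97) and MCRIP2P1 (4.89), and the low line in CDK4 (12.69). In 8 of these 9 genes the line was thus the ABC DLBCL line nearest to the MCL mean, and in CDK4 the farthest from it. Those 8 genes were all called higher in MCL, so a high ABC DLBCL line in them is nearly bound to be the nearest. The count therefore says nothing of HBL-1 itself. OCI-Ly3 was the high line in LGMN (10.92) and DIPK1B (8.19), and MD903 in ROR1 (10.29). SU-DHL-8 was the high line in CCND3 (15.99) and the low line in CREB3L2 (4.82). Single reads set the high line in CTSF (OCI-Ly10, 4.77) and CNN3-DT (SU-DHL-8, 4.74).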

How the results depend on the processing

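The comparison called 103 genes. The count was 157 with the 25 libraries of the same type fitted together, 177 with all 34 libraries, 67 in the re-analysed lines, 21 with limma voom on recovered reads and 60 with the library total as a covariate. With 1 line left out at a time it was 48 (without OCI-Ly3) to 179 (without JVM2), and 177 without SU-DHL-8, 57 without OCI-Ly10, 63 without MAVER-1, 62 without SP-49 and 55 without SP-53. Without MD903 and SU-DHL-8, an alternative chosen after seeing the data, it was 397. The cause was not tested. The other settings, NU-DUL-1 added, another scaling, filter or prior, stayed within 1.5 times, and all 103 genes kept their direction in all 29 fits. Of 2626 values of named genes under alternatives, 2140 kept direction and side of the threshold, 431 no longer passed, 41 newly passed and 14 changed sign. Those 14, none called, were MAML3 with NU-DUL-1 added (-0.30) and with all 34 libraries (-0.30), and CCDC50 (-0.058) and CREB3L2 (-1.45) without MD903 and SU-DHL-8. They also held CREB3L2 without SU-DHL-8 (-1.18; with 1 line left out at a time -1.18 to 0.905), and CD5 with voom (0.38) and without OCI-Ly10 (0.26; -1.63 to 0.26). For TNFRSF13B they were -0.0092 after median-centring, -1.61 without SU-DHL-8, -0.09 without REC-1, -0.02 without SP-53 (-1.61 to 0.83) and -2.26 without MD903 and SU-DHL-8. For MME they were 0.62 without SU-DHL-8 (-1.04 to 0.62) and 1.52 without MD903 and SU-DHL-8. CXCR4 kept its direction and did not pass in any of 24 alternatives. Depth limited genes near 0 reads, where 3 reads per library were the floor. No paired analysis was possible because the labels give no replicate numbers.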
